A study of Drosophila melanogaster with 18 samples.

Results

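The opsin genes *ninaE*, *Rh2*, *Rh3*, *Rh4*, *Rh5*, *Rh6* and *Rh7* were followed through the adult life course of the fly ear. They were taken by gene name from a table of 16624 genes, and all 7 were found in it. RNA had been sequenced from dissected 2nd antennal segments. Each segment holds a Johnston's organ (JO), whose chordotonal neurons sense sound, gravity and wind. The flies were virgin, wild-type Canton-S *Drosophila melanogaster*, with no transgene and no treatment. Every age (days 1, 5, 25 and 50) had 2 male and 2 female libraries, day 10 had 2 male libraries alone, and 18 libraries were made in all. Flies were chilled on ice before dissection, and each library is a pool of segments whose number is not given in the sources used here. Nothing says whether the 2 libraries of a group came from separate cohorts, and p-values therefore measure the spread between these libraries, which may be technical. Values are normalised read counts, that is reads per gene divided by 1 size factor per library.

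Opsins are G protein-coupled receptors that bind a retinal chromophore and signal through a Gq protein and phospholipase C to the TRP and TRPL channels. In the compound eye, *ninaE* encodes rhodopsin 1 of the outer photoreceptors R1 to R6, *Rh3* and *Rh4* encode the UV opsins of the R7 cells, and *Rh5* and *Rh6* encode the blue and green opsins of the R8 cells. *Rh2* is the opsin of the ocelli, the simple eyes on top of the head, and *Rh7* is known from brain clock neurons. Opsins have also been described in chordotonal organs, which is why their transcripts are of interest in the ear. The gene *chp* (chaoptin) encodes an adhesion protein of the photoreceptor membrane and was used as the marker of retina transcripts.

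On dm6, the opsins lie on 3 chromosome arms. *ninaE* (FBgn0002940) spans 3R:19886255-19888206 on the minus strand, *Rh2* (FBgn0003248) 3R:18899423-18901019 on the plus strand, *Rh3* (FBgn0003249) 3R:20081060-20082450 on the minus strand and *Rh6* (FBgn0019940) 3R:15483158-15484699 on the plus strand. *Rh4* (FBgn0003250) spans 3L:16852527-16862517 and *Rh7* (FBgn0036260) 3L:12164205-12175482, both on the minus strand, and *Rh5* (FBgn0014019) spans 2L:12008153-12009832 on the plus strand. *sina*, *sinah* and *CG13029* lie within *Rh4* on the opposite strand and share 0 exon bases with it. *chp* (FBgn0267435) lies at 3R:31204180-31210730.

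Libraries held between 5815182 and 14315927 reads in genes, and replicates of a group correlated at r = 0.954 to 0.967 across genes. The JO markers were found in every library, with a summed level of 2387 to 4443 over 7 genes. Transcripts that differ by sex went against the labels at day 50. *roX1*, an RNA of male dosage compensation, was 14039 to 34078 in the male-labelled libraries, 395 to 757 in females until day 25, 1118 in female day 50 replicate 1 and 16418 in female day 50 replicate 2. *Yp1*, a yolk protein gene of females, was 94.3 to 184 in males until day 25, 1944 in male day 50 replicate 1 and 25444 in male day 50 replicate 2, against 24388 and 19045 in the females of that age. Counts of genes called against day 50 over both sexes are therefore given also without male day 50 replicate 2 and female day 50 replicate 2. Levels of males were compared with those of females at days 1, 5 and 25 only. The male and female changes up to day 50 are compared under this limit.

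Retina transcripts varied widely between libraries. Male replicates 1 and 2 held 1927 and 1222 (day 1), 83.1 and 3338 (day 5), 1448 and 187 (day 10), 253 and 230.1 (day 25) and 2997 and 1954 (day 50). Female replicates held 233 and 332 (day 1), 54.4 and 49.6 (day 5), 262 and 194 (day 25) and 184 and 1398 (day 50). The widest gap on the log2 scale lay between 332 and 1222 and left 7 libraries above it, which were both male libraries of day 1, male day 5 replicate 2, male day 10 replicate 1, both male libraries of day 50 and female day 50 replicate 2. In 3 groups (males of days 5 and 10 and females of day 50) the 2 replicates thus lay on opposite sides of the gap. More retina tissue in a pool and more retina RNA per cell cannot be told apart in such bulk samples, and the same holds for fewer cells or less RNA per cell wherever an opsin fell.

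*ninaE*, the opsin of the outer photoreceptors, spanned a 547-fold range, from 145 to 79450.1. Its values in male replicates 1 and 2 were 11969 and 10754 (day 1), 523 and 77899 (day 5), 52509 and 3585 (day 10), 6659 and 6756 (day 25) and 79450.1 and 64903 (day 50). Its values in female replicates 1 and 2 were 3192 and 2447 (day 1), 145 and 160.4 (day 5), 13262 and 8121 (day 25) and 2156 and 43199 (day 50). The lowest values were thus those of day 5 in all but male day 5 replicate 2, which was second only to male day 50 replicate 1, and the replicates of day 25 lay close to each other in both sexes. Reads of *ninaE* made up 0.00137% to 0.783% of all reads in genes. The 5 libraries with 43199 or more were all among the 7 with *chp* above the gap, and the other 2 of these, the males of day 1, held less *ninaE* than female day 25 replicate 1.

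*Rh3*, the first UV opsin of R7, had 1059 and 869 (day 1), 19.0 and 2546 (day 5), 1757 and 157 (day 10), 255 and 70.8 (day 25) and 3904 and 3128 (day 50) in the male pairs. The female pairs had 195 and 165 (day 1), 2.14 and 19.1 (day 5), 582 and 399.9 (day 25) and 249 and 2173 (day 50). It spanned a 1829-fold range, and its lowest value, in female day 5 replicate 1, was 2 reads.

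*Rh4*, the other R7 opsin, followed the same libraries. Male pairs read 1612 and 1016 (day 1), 31.2 and 4237 (day 5), 3226 and 138 (day 10), 473 and 565 (day 25) and 9796 and 5551 (day 50). Female pairs read 739.7 and 235 (day 1), 20.3 and 22.2 (day 5), 714 and 509 (day 25) and 171 and 3664 (day 50). Both R7 opsins were lowest in the same 3 libraries of day 5 and highest in the same 7 libraries, at 869 or more for *Rh3* and 1016 or more for *Rh4*.

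*Rh5*, the blue opsin of R8, gave 323 and 160.3 (day 1), 46.7 and 1143 (day 5), 1014 and 54.4 (day 10), 91.7 and 113 (day 25) and 2112 and 1377 (day 50) in male replicates 1 and 2. Female replicates 1 and 2 gave 60.4 and 71.0 (day 1), 18.1 and 27.5 (day 5), 208 and 182 (day 25) and 142 and 795 (day 50). Male day 1 replicate 2, with *chp* above the gap, held less *Rh5* than either female library of day 25, with *chp* below it.

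*Rh6*, the green opsin of R8, never fell far and spanned only a 12.7-fold range. Its male replicates showed 1095 and 821 (day 1), 574 and 3666 (day 5), 3411 and 547 (day 10), 815 and 1042 (day 25) and 4761 and 2779 (day 50). Its female replicates showed 486 and 374 (day 1), 647 and 522 (day 5), 780.5 and 588 (day 25) and 641 and 2206 (day 50). In the 3 libraries with the least *chp* (83.1 or less), *Rh6* stood at 522 to 647 while *ninaE* stood at 145 to 523, so *Rh6* was above *ninaE* in each of them, and the third opsin with many reads there was *Rh7*, at 447 to 586. It reached 2206 or more in 5 libraries, the same 5 in which *ninaE* was at least 43199.

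*Rh2*, the ocellar opsin, was spread differently. The males held 165 and 70.5 (day 1), 29.4 and 4.43 (day 5), 505 and 382 (day 10), 9.33 and 32.7 (day 25) and 500.1 and 326 (day 50). The females held 9.86 and 512 (day 1), 23.5 and 55.8 (day 5), 79.4 and 279 (day 25) and 175 and 102 (day 50). Its lowest value, 5 reads, came from male day 5 replicate 2, the library with the most *chp*, and the replicates of female day 1 differed by 5.56 on the log2 scale.

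*Rh7*, the opsin of clock neurons, was the steadiest and spanned a 3.17-fold range. Male libraries carried 506 and 436 (day 1), 578 and 358 (day 5), 423 and 377 (day 10), 623 and 919 (day 25) and 583 and 420.1 (day 50). Female libraries carried 433 and 396 (day 1), 586 and 447 (day 5), 576 and 661 (day 25) and 595 and 289.5 (day 50). The 4 libraries of day 25 held the highest value and none below 576.

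**Figure D1:**
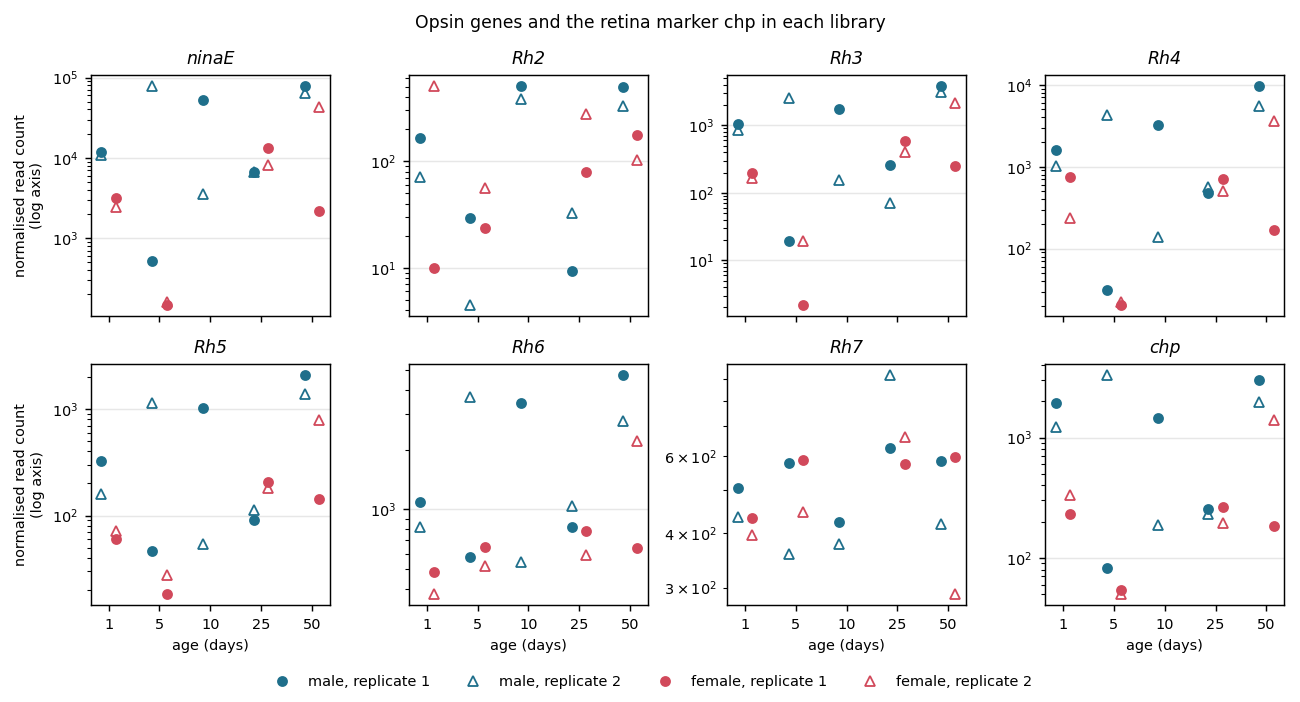
Normalised read count (log axis) of the 7 opsins and of the retina marker chp by age in days, with 1 symbol per library, colour for sex and symbol shape for replicate. Male day 5 replicate 2 (ninaE 77899) stands far above the other 3 libraries of day 5, and Rh7 stays between 289.5 and 919 throughout.

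Per kilobase of exon the opsins ranked, by their median over 18 libraries, as *ninaE* (4684), *Rh6* (567), *Rh4* (474), *Rh3* (235), *Rh7* (119), *Rh5* (96.2) and *Rh2* (66.3). The ranges of all neighbours in this order overlapped. *ninaE* made up 12.3% to 85.4% of the summed opsin level per kilobase, with a median of 74.4%, and *Rh6* 3.92% to 61.9%, with a median of 8.71%. In male day 5 replicate 1 and both females of day 5, where the sum was lowest (672 to 969), *Rh6* held 42.1% to 61.9% and *Rh7* 14.9% to 19.7%, and *ninaE* held 12.3% to 34.0%. In the 7 libraries with *chp* above the gap *ninaE* held at least 70.3%, and *Rh7* held 1.21% or less. *Rh3* stood below *Rh4* per kilobase in 16 of 18 libraries, with a median ratio of 0.588, and *Rh5* stood below *Rh6* in all 18, with ratios between 0.0251 and 0.444.

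**Figure D2:**
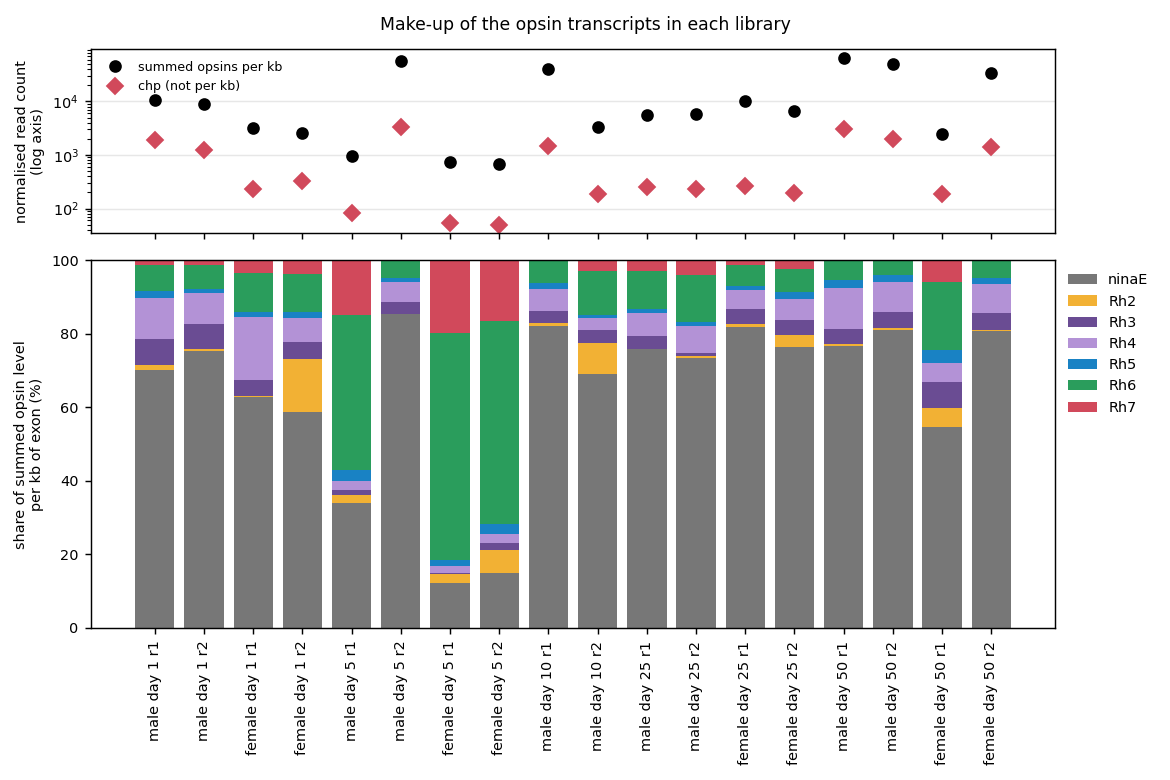
Upper panel, summed opsin level per kilobase of exon (circles) and chp as normalised read count (diamonds) on a log axis in each library, where r1 and r2 are replicates. Lower panel, share of each opsin in that sum, in percent. Rh6 makes up 42.1% to 61.9% in the 3 libraries of day 5 with the least chp, where ninaE falls to 34.0% or less.

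The opsins were then read against *chp* library by library. Because *chp* fell into 2 sets of libraries, no correlation over all 18 was tested, and r was computed on log2(value + 1) within each set. The permutations exchanged libraries across ages and sexes. Their p therefore does not separate covariation between libraries from differences between ages. Among the 11 libraries below the gap, *ninaE* correlated with *chp* at r = 0.911 (Spearman rho = 0.691, two-sided permutation p = 0.00097 and 0.0218), *Rh4* at r = 0.910 (rho = 0.773, permutation p = 0.00104 and 0.00734), *Rh3* at r = 0.863 (rho = 0.664, permutation p = 0.00254 and 0.0304) and *Rh5* at r = 0.766 (rho = 0.618, permutation p = 0.00596 and 0.0477). The Benjamini-Hochberg adjusted permutation p over the 7 correlations of the set was 0.00364, 0.00364, 0.00593 and 0.0104 for Pearson's r, and 0.0514 to 0.0835 for rho. The 2 libraries farthest from the median of *chp* were both females of day 5. Without them r was 0.699, 0.785 and 0.694 for *ninaE*, *Rh4* and *Rh3* and 0.368 for *Rh5*, so the relation of *Rh5* rested on them. Male day 5 replicate 1 stayed in, with *chp* at 83.1 and *ninaE* at 523. In this set the libraries of day 5 held the least *chp*, *ninaE*, *Rh3*, *Rh4* and *Rh5*. Whether the relations of *ninaE*, *Rh3* and *Rh4* hold among the other ages alone was not tested. *Rh2* (r = 0.250, rho = 0.136), *Rh6* (r = 0.0809, rho = 0.0545) and *Rh7* (r = 0.0382, rho = -0.0818) gave permutation p from 0.454 to 0.907 for r and 0.693 to 0.880 for rho, with adjusted values from 0.635 to 0.907.

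Among the 7 libraries above the gap, *ninaE*, *Rh3*, *Rh4*, *Rh5* and *Rh6* correlated with *chp* at r = 0.591 to 0.650 and rho = 0.750 to 0.857. Their exact permutation p lay between 0.109 and 0.148 for r and between 0.0238 and 0.0663 for rho, and the adjusted values were 0.208 and 0.0928. For *Rh2* r was -0.322 and for *Rh7* 0.302. Without the 2 libraries farthest from the median, r ranged from 0.238 to 0.598 over the 5 eye opsins. The other retina and lens genes on the list, *eys*, *prom*, *Hdc*, *retinin* and *Cry* (a lens crystallin), gave another reading. With their median level in place of *chp*, 0 of the 7 opsins passed among the 11 libraries, and r was -0.163 for *Rh3* and -0.215 for *Rh5*. Of these 5 genes, *retinin* (-2.88) and *Cry* (-2.04) fell from day 1 to day 5 (limma adjusted p = 0.0001 and 0.0278), while *eys* (0.02), *prom* (0.15) and *Hdc* (-0.13) were not called.

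**Figure D3:**
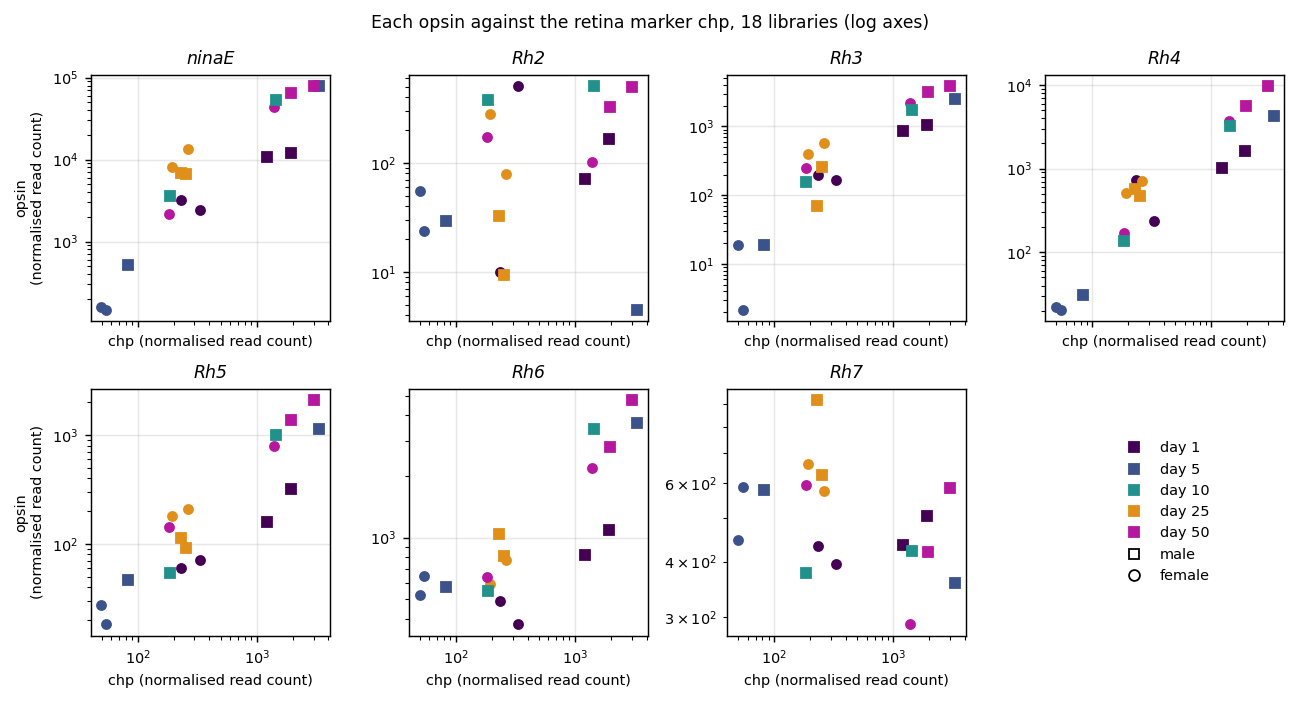
Each opsin against chp in 18 libraries (normalised read counts, log axes), with colour for age and squares for males, circles for females. ninaE, Rh3, Rh4 and Rh5 climb with chp, Rh6 lies at 374 to 1042 in the 11 libraries with chp of 332 or less and at 821 to 4761 in the other 7, and Rh2 and Rh7 show no common course.

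Replicates of 1 age and sex are compared here as a description. Between the males of day 5, where *chp* differed by 5.31 on the log2 scale, *ninaE* differed by 7.22, *Rh4* by 7.04, *Rh3* by 6.99, *Rh5* by 4.58 and *Rh6* by 2.67, all upwards with *chp*, while *Rh2* was lower by 2.49 and *Rh7* by 0.69. Between the females of day 50, where *chp* differed by 2.92, *Rh4* differed by 4.41, *ninaE* by 4.32, *Rh3* by 3.12, *Rh5* by 2.48 and *Rh6* by 1.78 in that direction, and *Rh7* by 1.04 in the other. Between the males of day 10 the differences of replicate 2 from replicate 1 were -2.95 for *chp*, -4.54 for *Rh4*, -4.19 for *Rh5*, -3.87 for *ninaE*, -3.47 for *Rh3* and -2.64 for *Rh6*, beside -0.40 for *Rh2* and -0.17 for *Rh7*. In the other 6 groups *chp* differed by 0.66 or less between replicates, and *Rh7* by 0.56 or less.

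Over all 18 libraries, as a description with no test, the genes closest to *ninaE* among those with a mean of at least 50 were *Arr1* (r = 0.978) and *Arr2* (0.975), the arrestins that quench rhodopsin, and *trp* (0.964), the light-gated channel. *Arr1*, *Arr2*, *trp* and *rtp* were among the first 5 genes of *Rh3* and *Rh4* as well (r = 0.940 to 0.988), and *chp* ranked between 10 and 12 for *ninaE*, *Rh3*, *Rh4* and *Rh5*. *Rh6* stood closest to *ninaG* (0.954), an oxidoreductase of chromophore synthesis, *Mppe* (0.951) and *prom* (0.946), the fly prominin, with *chp* at rank 27. *Rh7* stood closest to *CG17380* (0.942), *CG12866* (0.939) and *SIFaR* (0.931), a neuropeptide receptor, and *Rh2* had no gene above r = 0.736.

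Changes with age were tested with limma on all 14663 genes that passed the filter on low values, which all 7 opsins did. Calls required a fold change above 1.5 together with a Benjamini-Hochberg adjusted p under 0.1, and a change averages that in males and that in females. For every opsin and each of the age comparisons between days 1, 5, 25 and 50, the ranges of the libraries of the 2 ages overlapped. The change of *chp* is given with each comparison, and the fit with *chp* as a covariate for the called opsins and those it adds. Its slope on *chp* comes from differences between replicates of a group, mainly the males of days 5 and 10 and the females of day 50. That fit was not repeated with single libraries left out.

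From day 1 to day 5, 1 of the 7 opsins was called, where 13.5% of all genes tested were called. *Rh3* fell by 3.30 on the log2 scale (SE 1.12, limma adjusted p = 0.0635), and *chp* changed by -1.97 (adjusted p = 0.155). *Rh4* (-3.01), *ninaE* (-2.51) and *Rh2* (-2.04) had adjusted p from 0.118 to 0.184, *Rh5* (-0.74), *Rh6* (0.53) and *Rh7* (0.13) from 0.625 to 0.793, and the median over the opsins was -2.04 against 0.03 over all genes. With a pseudocount of 8 *Rh3* was not called (-2.69, limma adjusted p = 0.105), and edgeR and DESeq2 on the recovered reads called *Rh2* in its place (-2.71, adjusted p = 0.0305, and -2.76, 0.0225). The *Rh3* call was lost (adjusted p 0.116 to 0.284) when any library of day 1, male day 5 replicate 1 or female day 5 replicate 1 was left out. Without male day 5 replicate 2, *ninaE* (-4.31, limma adjusted p = 0.0012), *Rh3* (-5.04, 0.000243) and *Rh4* (-4.78, 0.00148) fell. With *chp* as a covariate *Rh3* was at -0.90 (limma adjusted p = 0.352), *Rh5* rose by 1.16 (0.0225) and *Rh6* rose by 1.71 (8.82e-05). Within libraries, *Rh5* over *chp* differed by 1.23 and *Rh6* over *chp* by 2.50 (exact permutation p = 0.0286 and 0.0857, adjusted 0.206 and 0.309).

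From day 5 to day 25, 1 of the 7 was called, beside 12.7% of all genes. *ninaE* rose by 3.07 (SE 1.15, limma adjusted p = 0.0956), with *chp* at 0.48 (0.775). *Rh4* (2.63), *Rh3* (2.60), *Rh2* (1.27), *Rh5* (0.94), *Rh7* (0.50) and *Rh6* (-0.22) had adjusted p from 0.149 to 0.848. edgeR (1.79, adjusted p = 0.269) and DESeq2 (1.79, 0.266) did not call *ninaE*. The *ninaE* call held without male day 5 replicate 2, either male library of day 10 or either female library of day 50, and was lost (adjusted p 0.108 to 0.348) without any other of the 18 libraries. Without male day 5 replicate 2, *ninaE* (4.88, limma adjusted p = 0.00391), *Rh4* (4.39, 0.0167), *Rh3* (4.34, 0.00796) and *Rh5* (2.09, 0.0933) rose. With *chp* as a covariate, *ninaE* rose by 2.42 (1.61e-05), *Rh3* by 2.01 (0.0103) and *Rh4* by 1.96 (0.00306).

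From day 25 to day 50, 5 of the 7 opsins were called, where 27.2% of all genes were called. *Rh3* rose by 2.65 (SE 1.12, limma adjusted p = 0.0858), *Rh5* by 2.42 (SE 0.86, 0.0456), *Rh2* by 2.14 (SE 0.87, 0.0754) and *Rh6* by 1.40 (SE 0.54, 0.0643), and *Rh7* fell by 0.59 (SE 0.22, 0.0566). *ninaE* (1.66, adjusted p = 0.284) and *Rh4* (2.11, 0.190) were not called. The median of the 7 opsins was 2.11 against -0.04 over all genes, and *chp* itself rose by 2.24 (SE 0.85, 0.0594). edgeR and DESeq2 both called *ninaE* (2.26, adjusted p = 0.0980, and 2.26, 0.0975) and *Rh4* as well and did not call *Rh7*, whose fold change was below the limit.

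None of the 5 calls held without each library in turn. Without female day 50 replicate 2, 0 of the 7 opsins were called (limma adjusted p 0.119 to 0.759), with a median change of 1.01, and the calls over all genes went from 3992 to 2861. Without female day 25 replicate 2 again 0 were called, with a median change of 1.99, and the calls over all genes went to 2024. Without both male day 50 replicate 2 and female day 50 replicate 2, 0 were called, with a median of 1.22 and *Rh5* at 1.96 (limma adjusted p = 0.252), and 1762 genes were called in all. Beyond female day 25 replicate 2 and female day 50 replicate 2, the *Rh5* call was lost without male day 25 replicate 2, that of *Rh7* without male day 25 replicate 2 or male day 50 replicate 2, and that of *Rh6* without either male library of day 25 or male day 50 replicate 1. The *Rh3* call was lost without male day 25 replicate 2, female day 25 replicate 1 or either male library of day 50, and that of *Rh2* without male day 25 replicate 1, female day 25 replicate 1, either male library of day 50 or female day 50 replicate 1. Over all libraries that ended a call, the limma adjusted p ran from 0.107 to 0.202 for *Rh2*, 0.120 to 0.293 for *Rh3*, 0.103 to 0.187 for *Rh5*, 0.121 to 0.256 for *Rh6* and 0.176 to 0.275 for *Rh7*. With *chp* as a covariate, *Rh3* (-0.08), *Rh5* (0.25), *Rh6* (0.05) and *Rh7* (-0.31) had adjusted p from 0.409 to 0.936, *Rh4* was at -0.96 (0.127), *Rh2* rose by 2.69 (0.0970) and *ninaE* fell by 1.36 (SE 0.26, 0.0192). At nearly equal *chp*, 184 in female day 50 replicate 1 and 194 in female day 25 replicate 2, *ninaE* stood at 2156 and 8121 and *Rh6* at 641 and 588. The other libraries of day 50 held *chp* at 1398 or more, where no library of day 25 lay (262 or less). *ninaE* over *chp* differed by -0.59 between these ages (exact permutation p = 0.257, adjusted 0.463).

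From day 1 to day 50, 2 of the 7 were called, beside 22.0% of all genes. *Rh5* rose by 2.62 (SE 0.86, limma adjusted p = 0.0370) and *Rh6* by 1.71 (SE 0.54, 0.0323), while *chp* was at 0.76 (0.557). *ninaE* (2.22), *Rh3* (1.95), *Rh4* (1.73), *Rh2* (1.37) and *Rh7* (0.04) had adjusted p from 0.182 to 0.916. edgeR called *ninaE* (2.86, adjusted p = 0.0546) and *Rh3* (2.34, 0.0863) as well, and DESeq2 *ninaE* (2.84, 0.0397). With *chp* as a covariate *Rh5* rose by 1.89 (SE 0.28, 7.9e-05), *Rh6* by 1.25 (SE 0.21, 0.000261) and *ninaE* by 1.20 (SE 0.22, 0.000709). The *Rh6* call was lost without female day 50 replicate 2 (1.26, limma adjusted p = 0.147). The *Rh5* call was lost without the same library (limma adjusted p = 0.154) and without male day 1 replicate 2 (0.109). Without both male day 50 replicate 2 and female day 50 replicate 2, *Rh5* was at 2.16 (0.194) and *Rh6* at 1.46 (0.149).

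**Figure D4:**
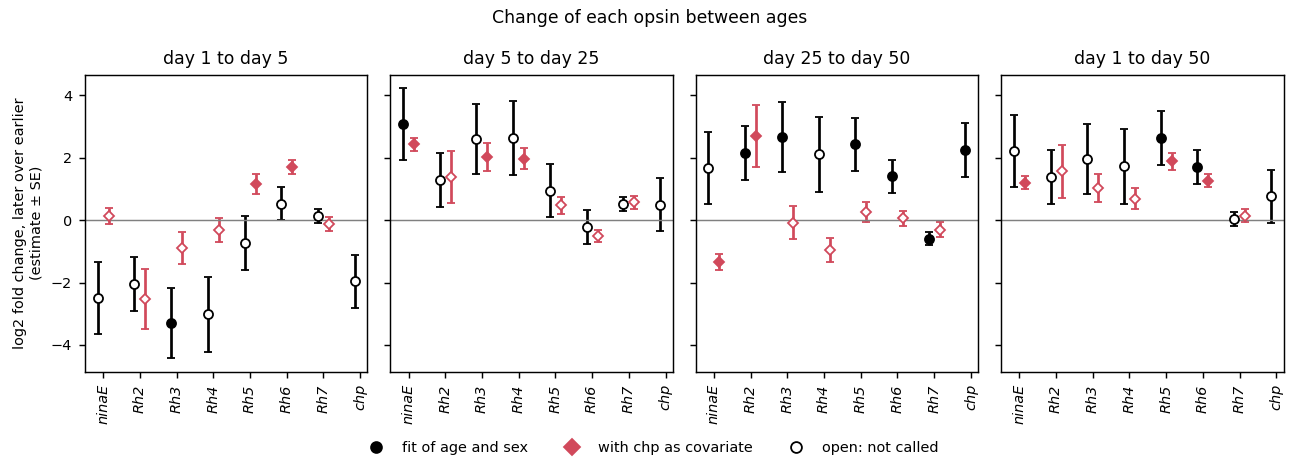
Log2 fold change with its standard error for the 7 opsins and chp in the 4 age comparisons, from the fit of age and sex (circles) and with chp as a covariate (diamonds), filled where called. From day 25 to day 50, Rh3, Rh5 and Rh6 lie between 1.40 and 2.65 in the first fit and between -0.08 and 0.25 in the second.

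Ratios within a library were compared between ages with two-sided exact permutation tests of 4 against 4 libraries, for which the smallest possible p is 0.0286. Of 36 ratio tests, 0 passed an adjusted p of 0.1 and 5 reached that smallest exact p (adjusted 0.206). *Rh5* over *chp* was higher at day 5 than at day 1, by 1.23 on the log2 scale (-1.18 ± 0.41 against -2.41 ± 0.43, SD, exact permutation p = 0.0286, n = 4 each), and higher at day 50 than at day 1, by 1.86 (-0.55 ± 0.19). *Rh3* over *chp* was higher at day 50 than at day 1, by 1.19 (0.53 ± 0.15 against -0.66 ± 0.34). In the replicate 1 libraries of day 50 alone, male and female, *Rh5* over *chp* was -0.50 and -0.37 and *Rh3* over *chp* 0.38 and 0.43, above the ranges of day 1 (-2.92 to -1.93 and -1.01 to -0.26). From day 5 to day 25 *ninaE* over *chp* rose from 2.56 ± 1.42 to 5.15 ± 0.44 and *Rh4* over *chp* from -0.89 ± 0.83 to 1.25 ± 0.25, both with separate ranges. *Rh3* over *Rh4* differed by at most 0.53 between ages (exact permutation p 0.600 to 0.971), and *Rh5* over *Rh6* had its smallest p of 0.0571 from day 1 to day 50, at 0.91 higher.

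In males, 0 of the 7 opsins were called from day 5 to day 10, where 0% of all genes were called by limma, with 983 at an unadjusted p below 0.05, 0 by edgeR and 56 by DESeq2. *Rh2* stood at 29.4 and 4.43 at day 5 and at 505 and 382 at day 10 (5.10 on the log2 scale, SE 1.23, limma adjusted p = 0.304), and DESeq2 called it (4.71, adjusted p = 0.0881). From day 10 to day 25, 2 were called, beside 29.0% of all genes. *Rh2* fell by 4.56 (SE 1.23, limma adjusted p = 0.0206) to 9.33 and 32.7, and *Rh7* rose by 0.92 (SE 0.31, 0.0472). Without male day 25 replicate 2 neither was called (*Rh2* -5.41, limma adjusted p = 0.117, *Rh7* 0.64, 0.328), and without male day 10 replicate 1 or replicate 2 *Rh7* was not (1.00, 0.106 and 0.84, 0.196). *chp* differed by -1.11 (0.517) and with it as a covariate *Rh2* fell by 4.83 (0.0187), *Rh7* rose by 0.78 (0.0691) and *Rh4* rose by 1.15 (0.0997).

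Between the sexes at days 1, 5 and 25, 0 of the 7 opsins were called by limma, beside 3.14% of all genes. *ninaE* was at 2.26 (SE 0.94, male over female, adjusted p = 0.350), *Rh2* at -1.33 (0.591) and *chp* at 1.96 (0.215). At an unadjusted limma p below 0.05 were *ninaE* (0.0287) and *Rh6* (0.0429). edgeR called *ninaE* (3.10, adjusted p = 0.0623) and DESeq2 called *ninaE* (3.11, 0.0144), *Rh3* (2.58, 0.0895) and *Rh4* (2.62, 0.0970). The absence of limma calls depended on male day 5 replicate 1 and on female day 1 replicate 1. Leaving out either of them left 1 library in its group. The fit with *chp* called 0, and *ninaE* was at -0.38 (0.842).

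For the difference between the male and the female change, limma called 0 of the 7 opsins from day 1 to 5, from 5 to 25 or from 25 to 50, where 0%, 0% and 0% of all genes were called. At an unadjusted p below 0.05 there were 423, 683 and 628 genes, edgeR called 0 in each and DESeq2 7, 6 and 5. Among the opsins, *Rh3* (-6.66), *ninaE* (-6.01) and *Rh5* (-4.25) were under that limit from day 5 to day 25, with a limma adjusted p of 0.814, and *Rh2* (4.60) from day 25 to day 50, with 0.999. These are male minus female changes on the log2 scale. That from day 25 to day 50 rests on the sex labels of day 50, which *roX1* and *Yp1* went against. The absence of opsin calls from day 5 to day 25 depended on male day 5 replicate 1, without which replicate 2 alone was left in that group.

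The rest of the pathway was read from gene lists. For the 23 phototransduction genes downstream of the opsins, the interval from day 1 to day 5 gave 0 rises and 4 falls, that from day 5 to day 25 no call, that from day 25 to day 50 gave 9 rises and 0 falls, and day 50 against day 1 gave 2 rises, where 13.5%, 12.7%, 27.2% and 22.0% of all genes were called. The medians were -0.89, -0.01, 1.68 and 0.44, beside 0.03, -0.02, -0.04 and -0.05 over all genes. From day 25 to day 50, *rtp*, retinophilin, rose by 2.32 (limma adjusted p = 0.0760), *Arr2*, the major arrestin, rose by 2.32 (0.0871) and *Ggamma30A*, the G protein gamma subunit of the eye, rose by 1.72 (0.0373). From day 1 to day 5, *trp* fell by 3.21 (0.0818) and *Gbeta76C*, the beta subunit, fell by 2.90 (0.0429). Without both male day 50 replicate 2 and female day 50 replicate 2, the rises from day 25 to day 50 were lost (median 1.29). Without female day 50 replicate 2 alone most were lost (median 1.14), as without female day 25 replicate 2 alone (median 1.68). Calls over all genes fell in these fits as well. Against day 1 the 2 rises were lost without both libraries of day 50 (median 0.0744). In the fit with *chp*, 0 rose and 2 fell from day 25 to day 50 (median -0.08). From day 1 to day 50, 4 rose and 1 fell in that fit (median 0.105). It gave 3 rises and 1 fall from day 1 to day 5, and 4 rises and 1 fall from day 5 to day 25. Over all 14663 genes it called 1925, 3104, 1705 and 1990 in these intervals, in this order. Without male day 5 replicate 2, the median of the list from day 1 to day 5 was -1.65, beside 0.0499 over all genes. From day 5 to day 25 it was then 0.562, beside -0.008765 over all genes. The summed level of the list ran from 12685 to 95591 at day 5 and from 18116 to 22109 at day 25.

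Of 8 tested genes of opsin folding and chromophore supply, the last interval gave 1 rise, beside 27.2% of all genes called. Day 50 against day 1 gave 2 rises and 3 falls, beside 22.0% of all genes, with a median of -0.659. Without both replicate 2 libraries of day 50 that median was -0.645. *ninaD*, a scavenger receptor for carotenoid uptake, fell by 4.60 from day 1 to day 5 (limma adjusted p = 6.25e-06), and *Pdh*, a retinol dehydrogenase of the pigment cells, fell by 3.36 (0.0233). From day 1 to day 50 *ninaD* fell by 5.12 (1.21e-06). The 16 regulators of photoreceptor identity gave 2 rises and 3 falls in the last interval, near the 27.2% called among all genes. There *Pph13*, a homeodomain factor of rhabdomere genes, rose by 2.18 (0.0529) and *sens*, which specifies R8, fell by 1.24 (0.0172). Without both replicate 2 libraries of day 50, the calls of that interval were lost among the regulators (median 0.0896) and the folding and chromophore genes (median 0.255). Calls over all genes fell as well.

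Marker lists of other tissues moved in part with the same ages. From day 25 to day 50, 3 of 6 retina and lens markers rose and none fell, *chp* by 2.24, *prom* by 1.19 (limma adjusted p = 0.0275) and *eys* by 0.81 (0.0107). Their summed level was 983 to 6077 at day 5, 1101 to 1219 at day 25 and 1229 to 5002 at day 50, and no marker was at 0. Without both replicate 2 libraries of day 50, the rises of these markers were lost, and their median change was 0.54. In that fit the medians of the fat body and hemocyte markers named next were 2.21 and 0.998, with fewer rises called. The counts of this interval from all 18 libraries stand beside the 27.2% of all genes called. That share does not apply to the fit from fewer libraries, in which calls over all genes fell as well. Of 11 tested eye pigment genes 1 rose and 2 fell, of 9 tested optic lobe and brain markers 0 rose and 1 fell, and of 7 JO markers 0 rose and 1 fell over the same interval. Fat body markers rose in 5 of 6 and hemocyte markers in 4 of 5. Olfactory markers of the 3rd segment were at summed levels of 15490 to 64543, with 0 of 9 tested rising and 1 falling. Without both replicate 2 libraries of day 50, the medians of the pigment, brain, JO and olfactory lists were 0.158, -0.483, -0.316 and -0.0571. From all 18 libraries they were 0.0996, 0.104, -0.369 and -0.0771. The part of each of these in the opsin changes was not tested, other than through the fits with *chp*.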

How the data were processed

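The authors extracted RNA with the RNeasy Mini kit, amplified cDNA with SMART-Seq v4, built libraries with Nextera XT, ran paired reads on a NextSeq 500, aligned them to dm6 in Partek Flow and counted them per gene with HTSeq. The deposited signal values are these counts, which the authors had scaled by 1 DESeq2 size factor for each library. Undoing the factor gave whole reads for 100% of values (tolerance 0.01). The deposited table also holds a mean over libraries and the authors' log2 fold changes, standard errors, Wald statistics and p-values for days 5 over 1, 25 over 5 and 50 over 25, none of which was used.

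Replicates are numbered in the order of the samples and pair nothing. Since the values are not whole counts, log2(value + 1) was fitted with limma 3.58.1 (trend) in R 4.3.3 with 1 coefficient per age and sex (9 residual and 7.42 prior degrees of freedom), over the 14663 genes with at least 10 in at least 2 libraries. A fold change on this scale understates that of low genes. Adjusted p-values of single genes were computed over all of these. The recovered reads were also tested with edgeR 4.0.16 (quasi-likelihood) and DESeq2 1.42.0. Pseudocounts of 0.5 and 8, other filters and models, TMM scaling, *chp* as a covariate and leaving out libraries were the further alternatives. With 1 library left out, its partner was assumed to vary like the other groups. Correlations used 100000 permutations for 11 libraries and full enumeration for 7 (scipy 1.17.1 in Python 3.11.15), all two-sided, with Benjamini-Hochberg adjustment over 7 correlations or 36 ratio tests. The fit was also run on simulated counts, in which each gene varied independently. These held no shared shift of many genes between libraries, such as that of the retina transcripts here. Positions and exon lengths are those of the Ensembl annotation of dm6. Figures were drawn with matplotlib 3.10.9.

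The members, lists and tests were chosen with earlier results of these data known. Named are the 7 opsins and *chp*, for each list up to 4 genes (the 2 most abundant and the 2 with the largest called change), and for each opsin the genes of most similar pattern. *roX1*, *Yp1*, *Hdc*, *retinin* and *Cry* were named after their values were seen. Of the list of opsin folding and chromophore supply, 2 of 11 entries were not found and 1 did not pass the filter. Opsin sequences were not used here.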

Additional observations from a re-analysis of the deposited data

Results flagged for a closer look

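At day 5, male replicate 2 stood far above the other 3 libraries of that age for 5 opsins and for *chp*, by the gap to its nearest neighbour relative to the whole range. Its values were 77899 for *ninaE*, 4237 for *Rh4*, 3666 for *Rh6*, 2546 for *Rh3*, 1143 for *Rh5* and 3338 for *chp*, against at most 523, 31.2, 647, 19.1, 46.7 and 83.1 in the other libraries of day 5. For normally distributed values, chance alone marks about 1 in 20 groups in this way, and the rate for these counts was not tested. These 6 values come from 1 library, so they are not separate observations. *Rh2* and *Rh7* of the same library were the lowest of that age, at 4.43 and 358. Changes into and out of day 5 are given above with and without this library.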

How the results depend on the processing

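From day 1 to day 5 the count of 1 became 0 with a pseudocount of 8, with age and sex as added terms or at an adjusted p below 0.05, and 2 with *chp* as a covariate. From day 5 to day 25 the count of 1 became 0 with edgeR, DESeq2, no filter, added terms or an adjusted p below 0.05, and 3 with *chp*. From day 25 to day 50 the count of 5 became 3 with added terms, 2 with *chp*, 1 at an adjusted p below 0.05 and 0 without both replicate 2 libraries of day 50. From day 1 to day 50 the count of 2 became 4 with edgeR and 0 without those libraries. DESeq2 called 1 opsin in males from day 5 to day 10, and males against females gave 1 with edgeR and 3 with DESeq2. Under the *chp* covariate, the log2 changes from day 1 to day 5 turned to 0.13 for *ninaE*, 1.16 for *Rh5* and -0.12 for *Rh7*, and those from day 25 to day 50 to -1.36 for *ninaE*, -0.084 for *Rh3* and -0.96 for *Rh4*. With the other retina markers in place of *chp*, 0 opsins correlated in the 11 libraries, and r turned to -0.17 for *Rh2*, -0.16 for *Rh3*, -0.21 for *Rh5* and -0.0039 for *Rh6*. The causes were not tested. TMM scaling changed no call of an opsin.

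With 1 library left out at a time, the counts ran from 0 to 3 (day 1 to day 5), 0 to 4 (day 5 to day 25), 0 to 7 (day 25 to day 50), 0 to 4 (day 1 to day 50), 0 to 2 (males, day 10 to day 25), 0 to 5 (males against females) and 0 to 4 (sex difference, day 5 to day 25). Log2 changes that turned ran from -1.88 to 0.41 for *Rh5*, -0.14 to 1.20 for *Rh6* and -0.043 to 0.30 for *Rh7* from day 1 to day 5, from -0.20 to 2.09 for *Rh5* and -0.89 to 0.45 for *Rh6* from day 5 to day 25, and from -0.020 to 2.76 for *Rh2* and -0.22 to 0.30 for *Rh7* from day 1 to day 50. Correlations with *chp* that turned ran from -0.045 to 0.404 for *Rh6* and -0.143 to 0.223 for *Rh7* in the 11 libraries, and from -0.654 to 0.650 for *Rh2* and -0.035 to 0.693 for *Rh7* in the 7.

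*Rh2*, *Rh3*, *Rh4* and *Rh5* each had fewer than 30 reads in at least 1 library. No paired analysis was possible because the labels carry no replicate numbers, and the numbers used here only name the libraries.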
